A study of Mus musculus with 4 samples.

Results

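Low H3K27ac peaks that hold the chromatin protein PHF6 are the subject here: weakly acetylated sites in mouse leukemia cells where a PHF6 peak lies on the acetylated interval. They were chosen by measured values of 3 deposited peak lists. A member is an H3K27ac peak on chromosomes 1 to 19 whose summit height is below 35, that shares at least 1 bp with a PHF6 peak and none with an H3K27me3 peak. Summit height is the number of fragments piled up at the highest point of a peak, as deposited. Of 32388 H3K27ac peaks, 31732 lay on chromosomes 1 to 19 and 10439 of these (32.9%) were members. They are called low-acetylation PHF6 sites, or sites, below. The 3 values that define them (H3K27ac height, PHF6 presence, H3K27me3 absence) are given as a description and support nothing.

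All 4 libraries came from 1 kind of cell: pre-B leukemia cells of strain C57BL/6J, with overexpressed BCR-ABL1, the fusion kinase used to transform them, on a p19 null background that every library shares. Chromatin was crosslinked and immunoprecipitated with an antibody to PHF6, to H3K27ac or to H3K27me3, and an input DNA library without antibody completes the series and was not analysed here. There was 1 library per antibody and read totals of the libraries are not known from the lists. No difference below therefore has a replicate check or a p-value, intervals on shares are 95% exact (Clopper-Pearson) binomial intervals that cover counting error only, and neighbouring peaks are not independent.

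PHF6 is a nuclear protein with PHD-type zinc fingers that binds chromatin and is mutated in human leukemias, above all of the T lineage. Acetylation of lysine 27 of histone H3 marks active promoters and enhancers, and trimethylation of the same lysine is placed by Polycomb repressive complex 2. Gene positions and DNA sequence of the sites were not analysed here, because the peak coordinates are in mouse build mm9 and the gene table at hand belongs to another build. Positions below are in mm9, each with its chromosome band, and the labelled cell type was not checked against its marker genes.

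Among low H3K27ac peaks without H3K27me3, 10439 of 15310 (68.2%, 67.4 to 68.9) held PHF6 and 4871 did not. The share was 57.2% (56.1 to 58.3) among H3K27ac peaks of intermediate height (35 to below 200) and 95.6% (95.1 to 96.1) among tall ones (200 or more). Within the low range PHF6 became rarer as acetylation rose. The share was 83.5% (81.0 to 85.8) at heights of 11 to 14, 71.9% (70.03 to 73.66) at 19 to 20 and 47.5% (45.0 to 50.0) at 30 to 34. Just inside the height threshold there were 112 sites of height 33 and 117 of height 34, and just outside it 127 PHF6-holding peaks of height 35 and 94 of height 36. Their median PHF6 heights were 26, 27, 26 and 27, so the threshold fell in a continuous range. The overlap threshold hardly mattered: 10329 of the 10439 sites (98.9%) shared at least 500 bp with PHF6 and 34 shared 100 bp or less, while 45 low peaks without PHF6 had a PHF6 peak less than 100 bp away.

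**Figure D1:**
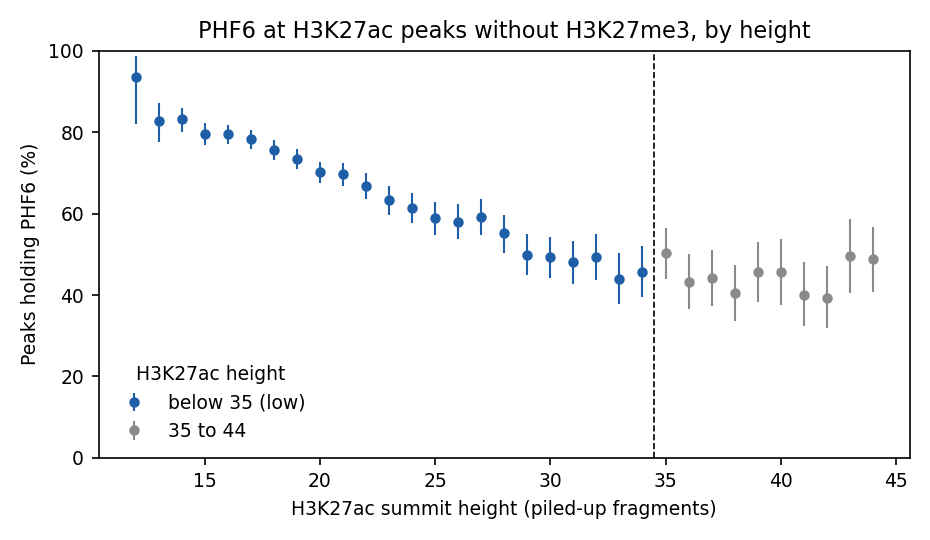
Share of H3K27ac peaks without H3K27me3 on chromosomes 1 to 19 that held PHF6 (vertical axis, percent) at each H3K27ac summit height from 12 to 44 (horizontal axis, piled-up fragments). Points are shares and bars are 95% exact binomial intervals. The share fell from 82.8% at height 13 to 45.7% at height 34, the last height inside the threshold (dashed line), and was 50.2% at height 35.

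The sites were narrow and weakly acetylated. Their H3K27ac heights ran from 11 to 34, with a median of 19 (quartiles 17 and 23), against a median of 23 (quartiles 19 and 28) in low peaks without PHF6. Their median width was 994 bp (838 and 1264), against 1128 bp (924 and 1531.5) in low peaks without PHF6, 1881 bp in intermediate and 2234 bp in tall peaks with PHF6. Width and height are linked within a list, so the order of the widths follows that of the heights. In each height range compared the sites with PHF6 were still the narrower, for example 810 against 868.5 bp at heights of 11 to 14 and 1308.5 against 1525 bp at 30 to 34.

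PHF6 peaks at these sites were taller than most PHF6 peaks and varied little with the acetylation. The tallest PHF6 peak on each site had a height of 12 to 126, with a median of 26 (quartiles 23 and 30), against 22 (19 and 27) over all 76703 PHF6 peaks. The median was 28 (23 and 33) on intermediate and 38 (32 and 44) on tall H3K27ac peaks, and 20 (18 and 23) for the 52993 PHF6 peaks that lay on neither histone mark. Intermediate peaks had the higher median PHF6 height on 16 of 19 chromosomes. Across the low range the median was 25 at heights of 11 to 14, 28 at 23 to 24 and 27 at 30 to 34. Spearman's rho between H3K27ac and PHF6 height was 0.12 over the 10439 sites, 0.156 over 4679 intermediate peaks and 0.497 over 6794 tall peaks. The order of the classes differed by PHF6 score, the peak caller's combined evidence over a peak. Its median was 268.3 at the sites, 190.9 at intermediate and 255.8 at tall peaks. The summit of the tallest PHF6 peak lay inside the H3K27ac peak at 84.88% of sites, 94.7% of intermediate and 99.31% of tall peaks. At the other sites the PHF6 height was thus read outside the acetylated interval. These values are descriptions over peaks of the same 2 libraries, and each height range is a cut of a continuous scale.

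**Figure D2:**
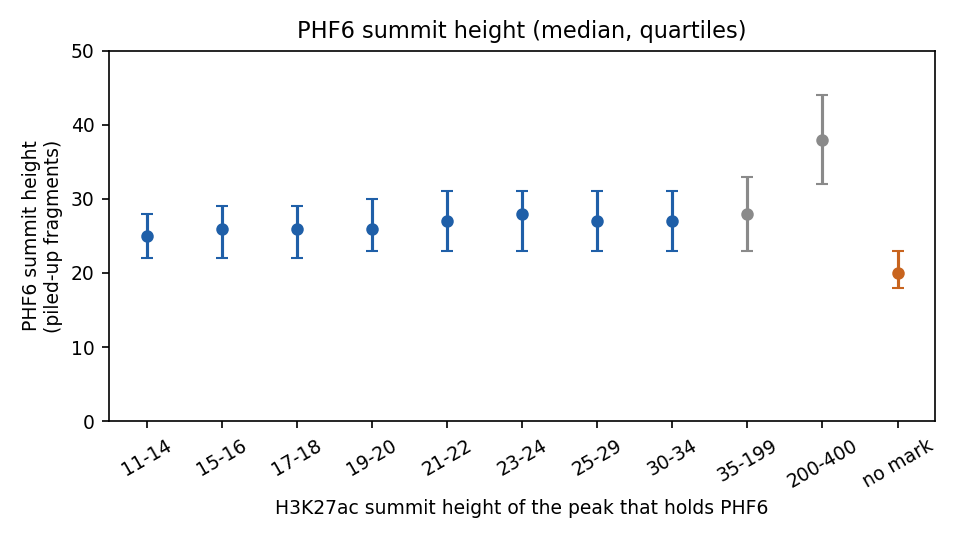
Height of the tallest PHF6 peak (vertical axis, piled-up fragments) on H3K27ac peaks grouped by their own summit height (horizontal axis). Blue points are low-acetylation PHF6 sites, grey points intermediate and tall H3K27ac peaks with PHF6, and the orange point PHF6 peaks on neither histone mark. Points are medians and bars are quartiles over peaks. The blue medians lie between 25 and 28, under the 38 of tall peaks and over the 20 of unmarked PHF6 peaks.

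From the side of PHF6, 10001 of 76703 PHF6 peaks (13.04%) lay on the sites, and 140 sites held more than 1. Ranked by height, PHF6 peaks on the sites were most frequent in the ninth of 10 equal parts, with heights of 28 to 34, where they made up 32.0% (31.0 to 33.1). They made up 13.05% (12.3 to 13.8) of the tallest part, about their share of all PHF6 peaks, and 2.83% (2.47 to 3.23) of the lowest. Other H3K27ac peaks took 36.8% of the ninth part and 80.4% of the tallest.

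At most sites the PHF6 peak was broader than the acetylated interval. Median PHF6 width was 1567 bp (1130 and 2355) on the sites, close to the 1493 bp on intermediate and 1577 bp on tall H3K27ac peaks. It was 1067 bp over all PHF6 peaks, and a wider peak has more chance to overlap an H3K27ac peak. The PHF6 peak was the wider of the pair at 89.0% (88.4 to 89.6) of sites, at 36.4% of intermediate and at 9.07% of tall peaks. The whole acetylated interval lay inside the PHF6 peak at 72.7% of sites and at 2.84% of tall peaks, while the PHF6 peak lay inside the acetylated interval at 4.29% of sites and at 78.4% of tall peaks. PHF6 width varied little between the classes while H3K27ac width changed with height. Spearman's rho between H3K27ac height and PHF6 width over the sites was 0.0028.

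The 2 summits of a site lay within 100 bp of each other less often than at stronger peaks. Within 500 bp the share was 78.2% at the sites, 77.05% at intermediate and 91.7% at tall peaks. The H3K27ac summit lay a median of 143 bp (54 and 413) from the nearest PHF6 summit, against 107 bp (35 and 437) at intermediate and 66 bp (25 and 166) at tall peaks. A distance of at most 100 bp was found at 40.1% (39.2 to 41.1) of sites, 48.4% of intermediate and 63.1% of tall peaks. The difference from intermediate peaks was -8.25 percentage points (Newcombe 95% interval -9.96 to -6.53) and from tall peaks -23.0 points (-24.4 to -21.5). Tall peaks had the higher share on 19 of 19 chromosomes. The sites were also the narrowest of these 3 classes. Distances over 1 kb occurred at 10.8% of sites, 11.4% of intermediate peaks (difference -0.634 points, -1.74 to 0.436) and 2.65% of tall peaks. Within the low range the share within 100 bp was 32.9% (29.7 to 36.4) at heights of 11 to 14 and 44.9% (41.3 to 48.6) at 30 to 34. Summit height thus moved with the distance, and its part in the difference was not tested.

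**Figure D3:**
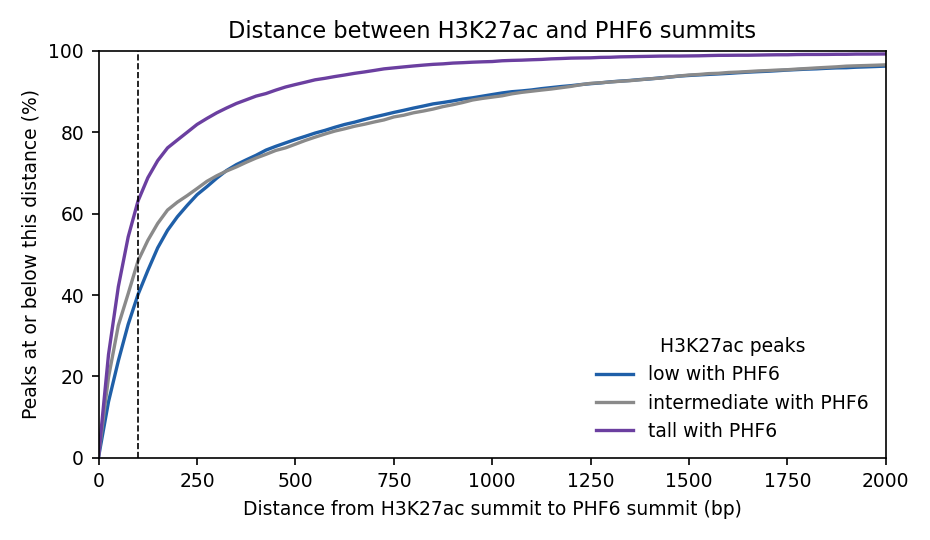
Cumulative share of peaks (vertical axis, percent) by the distance between the H3K27ac summit and the nearest summit of an overlapping PHF6 peak (horizontal axis, bp). Lines are low PHF6 sites, intermediate and tall H3K27ac peaks with PHF6, and the dashed line marks 100 bp, where they stand at 40.1%, 48.4% and 63.1%.

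Each site could be placed in 1 of 5 settings. In 341 sites (3.27%) the PHF6 peak also covered an H3K27ac peak of height 35 or more, and in 1009 (9.67%) it covered only other low ones. The other sites had a PHF6 peak of their own: 3377 (32.3%) lay within 10 kb of a stronger H3K27ac peak (height 35 or more, edge to edge), 4010 (38.4%) at 10 to 100 kb, and 1702 (16.3%) had none within 100 kb. Median H3K27ac height was 21 for sites sharing PHF6 with a stronger peak, 19 for those sharing it with low peaks, 21 within 10 kb, 19 at 10 to 100 kb and 17 beyond. Median PHF6 height was 32 and 30 in the shared settings and 25, 26 and 25 in the others. Median PHF6 width was 4645 and 3801 bp against 1493, 1465 and 1332 bp. A shared PHF6 peak has to reach more than 1 H3K27ac peak, so its greater width follows from how the settings were defined. Whether its height follows from its width was not tested. Sites with their own PHF6 peak thus had the same median PHF6 height of 25 in the nearest and the farthest setting. Their median H3K27ac height was 21 within 10 kb of a stronger peak and 17 with none within 100 kb. Where the PHF6 summit stood over 100 bp from the H3K27ac summit beside a stronger peak within 10 kb, it was on the side of that peak in 1283 of 2599 sites (49.4%, 47.4 to 51.3).

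Some PHF6 peaks carried several sites. Of the 10001 PHF6 peaks, 411 carried 2 sites, 54 carried 3, 16 carried 4, 2 carried 5 and 1 carried 6. The last, singled out after its values were seen like the others here, spanned 17.4 kb on chromosome 5 from 140225423 to 140242821 (band qG2) with a PHF6 height of 36, and its 6 H3K27ac peaks had heights of 17 to 30. A PHF6 peak of 13.0 kb on chromosome 10 at 80824585 to 80837579 (qC1, height 37) carried 5 sites of heights 19 to 30. Another, of 7.38 kb on chromosome 11 at 98247492 to 98254871 (qD, height 30), carried 5 of heights 15 to 24. None of these 3 covered a stronger H3K27ac peak, whereas 1 on chromosome 10 at 80719543 to 80728947 (qC1) carried 4 sites beside an H3K27ac peak of height 330. A called PHF6 peak is 1 unbroken interval, and these were picked for carrying several sites. Gaps between the acetylated intervals under them were therefore given by the choice. On chromosome 5 the 6 sites made up 7561 of 17399 bp.

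**Figure D4:**
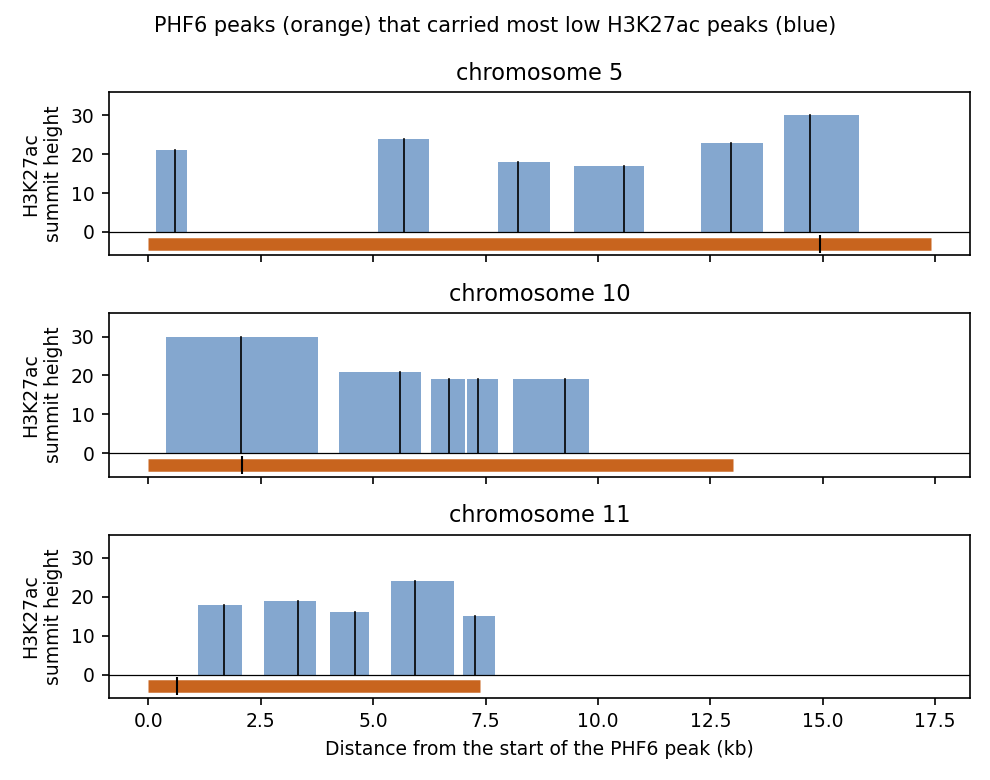
The 3 PHF6 peaks that carried most low-acetylation PHF6 sites, drawn by distance from the start of each PHF6 peak (horizontal axis, kb). The orange bar is the PHF6 peak with its summit as a tick. Blue bars are H3K27ac peaks, as wide as the peak and as high as its summit height (vertical axis, piled-up fragments), with the summit as a black line. They show 6, 5 and 5 separate acetylation peaks that overlap 1 PHF6 peak each.

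The sites lay in neighbourhoods rich in PHF6. Within 50 kb of the H3K27ac summit, the PHF6 peaks on the site itself left out, there was a median of 13 other PHF6 summits (quartiles 4 and 20). Low peaks without PHF6 had a median of 3 (1 and 8), intermediate peaks with PHF6 11 (4 and 18) and tall peaks with PHF6 5 (2 and 13). The median was higher at the sites than at low peaks without PHF6 on 18 of 19 chromosomes, and higher than at tall peaks on 18 of 19. Density and overlap come from the same PHF6 list, so a PHF6-dense region also gives an acetylated peak more chance to be a member, and the 2 cannot be told apart. The contrast was present at sites within 10 kb of a stronger H3K27ac peak, with a median of 17 against 6 without PHF6, and at 10 to 100 kb, with 11 against 3. Where no stronger peak lay within 100 kb the median was 1 in both classes, with quartiles of 0 and 4 at the sites and 0 and 2 without PHF6.

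The share of low peaks with a stronger H3K27ac peak within 10 kb rose with H3K27ac height at the sites, and was about level across heights at low peaks without PHF6. Over all heights the 2 classes did not separate: 40.9% (40.0 to 41.9) of sites and 41.8% (40.4 to 43.2) of low peaks without PHF6 had a stronger peak within 10 kb, a difference of -0.897 points (-2.58 to 0.775). By height the difference was negative at the lower and positive at the upper end of the low range. At heights of 11 to 16, 26.9% (25.1 to 28.6) of 2499 sites and 42.1% (38.1 to 46.2) of 594 peaks without PHF6 were near, a difference of -15.2 points (-19.6 to -10.9). At heights of 25 to 34 it was 56.6% (54.5 to 58.7) of 2158 sites and 42.1% (39.8 to 44.3) of 1904, a difference of 14.5 points (11.4 to 17.5). The share was larger at the upper than at the lower of these heights on 19 of 19 chromosomes for the sites and on 11 of 19 for peaks without PHF6. The median gap to a stronger peak fell from 54.27 kb (quartiles 12.03 and 215.9) at heights of 11 to 14 to 7.39 kb (2.24 and 21.6) at 30 to 34 with PHF6, and was 15.8 kb (2.94 and 74.9) and 13.4 kb (3.79 and 44.7) without it. Within 50 kb the share rose in both classes, from 56.2% (54.2 to 58.2) to 86.9% (85.4 to 88.3) at the sites and from 69.5% (65.7 to 73.2) to 76.5% (74.5 to 78.4) at peaks without PHF6, between heights of 11 to 16 and of 25 to 34. These height ranges were picked after the values were seen. Restricting the lists to scores of at least 100 left -8.66 points (-17.6 to -0.434) at the lower heights, and counting only peaks of height 200 or more as stronger left -4.93 points (-8.46 to -1.73). At the upper heights a gap of 5 kb gave 9.55 points (6.61 to 12.4).

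**Figure D5:**
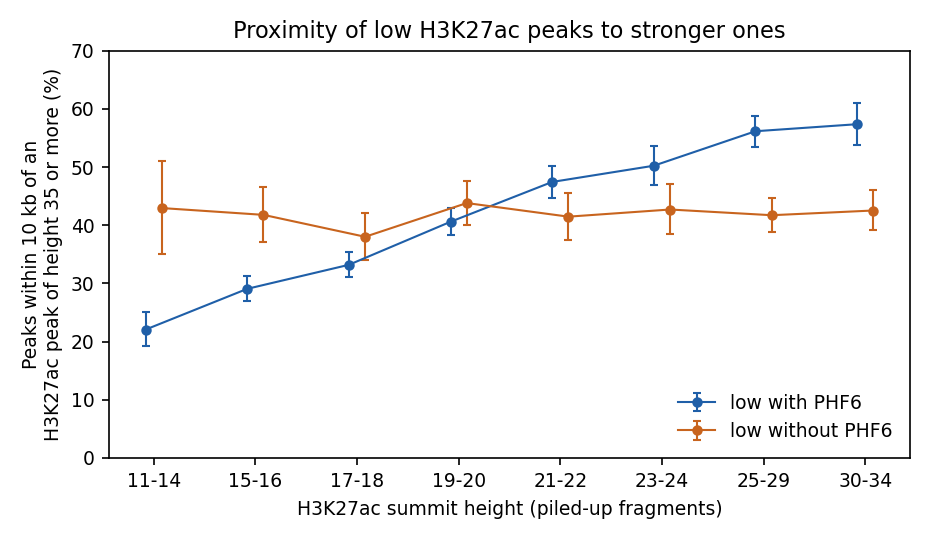
Share of low H3K27ac peaks within 10 kb of an H3K27ac peak of height 35 or more (vertical axis, percent) by their own summit height (horizontal axis, piled-up fragments), with PHF6 (blue) and without (orange). Points are shares and bars are 95% exact binomial intervals. The blue share rose from 22.05% at heights of 11 to 14 to 57.4% at 30 to 34, and the orange one lay between 38.0% and 43.8%.

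H3K27me3 peaks, which by the rule do not touch the sites, were somewhat closer to them than to low peaks without PHF6. An H3K27me3 peak lay within 10 kb of 8.98% (8.43 to 9.54) of sites, of 5.36% (4.74 to 6.03) of low peaks without PHF6, of 8.96% of intermediate and of 11.01% of tall peaks with PHF6. The difference from low peaks without PHF6 was 3.62 points (2.76 to 4.44), and the share was higher at the sites on 17 of 19 chromosomes. The median gap to H3K27me3 was 109.0 kb at the sites and 140.5 kb at low peaks without PHF6. The rule removed 452 of 15762 low H3K27ac peaks for touching H3K27me3.

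Sites were unevenly spread. They numbered 7.54 per Mb on chromosome 11 and 2.08 per Mb on chromosome 3. All H3K27ac peaks numbered 22.2 and 8.44 per Mb there, and all PHF6 peaks 52.6 and 16.7, so these were uneven too. Of 2482 windows of 1 Mb, 630 held no site while 211 held as many sites as all others together. Light bands, which are gene-rich and make up 41.2% of the autosomes, held 52.9% (52.0 to 53.9) of sites. They held 46.3% (44.9 to 47.7) of low peaks without PHF6, 52.87% of intermediate and 48.65% of tall peaks with PHF6. The darkest bands held 17.9% of sites, 23.4% of low peaks without PHF6, 16.69% of intermediate and 19.65% of tall peaks with PHF6. The share of low H3K27ac peaks that held PHF6 ran from 50.7% (46.4 to 55.1) on chromosome 13 to 77.4% (74.4 to 80.1) on chromosome 8. Median PHF6 height at the sites lay between 25 and 27 on every chromosome.

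The 2 densest windows were neighbours on chromosome 10 in band qC1. The window from 80000001 to 81000000 held 102 sites, 2 low peaks without PHF6, 61 stronger H3K27ac peaks and 247 PHF6 peaks, and that from 79000001 to 80000000 held 88, 1, 62 and 253. The next window held few stronger peaks. On chromosome 6 from 114000001 to 115000000 (qE3) there were 64 sites, 6 low peaks without PHF6 and 9 stronger H3K27ac peaks, with a median PHF6 height of 31 at the sites. Windows on chromosome 4 from 140000001 to 141000000 (qD3) and on chromosome 2 from 167000001 to 168000000 (qH3) held 57 and 55 sites beside 27 and 33 stronger peaks.

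A PHF6 height of 56 or more was found at 12 of the 10439 sites. In the tallest of the 10 equal parts of all PHF6 peaks, which starts at height 34, peaks on the sites were not rarer than among all PHF6 peaks (13.05% against 13.04%). The site with the tallest PHF6 peak lay on chromosome 19 at 7013034 to 7014474 (qA), with a PHF6 height of 126 over an H3K27ac height of 18. Its PHF6 summit stood 1945 bp from the H3K27ac summit, and the next stronger H3K27ac peak began 0.354 kb away. A site on chromosome 10 at 67742333 to 67743265 (qB5.2) had a PHF6 height of 107 and an H3K27ac height of 22. Its summits stood 1076 bp apart and a stronger peak lay 0.761 kb away. The PHF6 peak there, from 67740869 to 67742380, met only the start of the site. That on chromosome 19, from 7011931 to 7017476, covered the whole site. In both, the PHF6 summit lay outside the low H3K27ac peak.

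At the other 8 of the 10 named for a tall PHF6 peak the PHF6 summit lay inside the low peak. A pair on chromosome 11 in band qC, at 87235462 to 87236689 and at 87239363 to 87240542, had PHF6 heights of 122 and 98 over H3K27ac heights of 34 and 33. Their widths of 1228 and 1180 bp and summit distances of 223 and 208 bp were alike, and their H3K27ac summits lay 3.83 kb apart. On chromosome 8 at 40238022 to 40238872 (qA4) the PHF6 height was 79 over an H3K27ac height of 30, the summits stood 12 bp apart and no other H3K27ac summit lay within 169.3 kb. On chromosome 11 at 5067386 to 5070684 (qA1) the PHF6 height was 74, on chromosome 4 at 3106941 to 3109903 (qA1) it was 61, and on chromosome 6 at 3081760 to 3085509 (qA1) it was 56, each over an H3K27ac height of 29 or 30. These last 3 were broad, at 3299, 2963 and 3750 bp. The remaining 2 of the 10 had PHF6 heights of 56, on chromosome 2 at 165953317 to 165954182 (qH3), with summits 1 bp apart, and on chromosome 16 at 31162492 to 31163669 (qB2), with summits 139 bp apart. In all 5 sites had a PHF6 height of 56, and the 3 with the highest H3K27ac were named.

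At the other end, 6 sites shared the lowest H3K27ac height of 11. The one on chromosome 6 at 99676051 to 99677140 (qD3) carried a PHF6 peak of height 32, the one on chromosome 14 at 76815608 to 76816333 (qD3) 28, and the one on chromosome 12 at 72307773 to 72308457 (qC3) 26. Those on chromosome 7 at 64764242 to 64765267 (qC) and on chromosome 15 at 85959775 to 85960868 (qE2) carried 24 and 20, and the one on chromosome 4 at 60470712 to 60471749 (qB3) 18. The next stronger H3K27ac peak was 58.6, 87.3, 68.5, 1148, 1.05 and 612.4 kb away, in the same order. Of these 6 PHF6 heights, 2 were above the median of 26 over all sites, 1 was at it and 3 were below.

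PHF6 height at the 5 most isolated sites ran from 16 to 36. On chromosome 15 at 19607662 to 19608479 (qA2) no other H3K27ac summit lay within 2411 kb, and a PHF6 peak of height 32 stood over an H3K27ac height of 13. On chromosome 7 at 77338285 to 77339116 (qD1), chromosome 5 at 58110063 to 58111352 (qC1), chromosome 14 at 82483435 to 82484345 (qD3) and chromosome 11 at 37049380 to 37050181 (qA5) the distances were 2241, 1876, 1728 and 1394 kb. PHF6 heights there were 23, 20, 36 and 16 over H3K27ac heights of 21, 15, 20 and 14. Other PHF6 summits within 50 kb numbered 0, 0, 2, 1 and 0 around these 5 sites. At the chromosome 5 site an H3K27me3 peak lay 1.65 kb away.

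The widest sites were long stretches of low acetylation that each overlapped a PHF6 peak of over 5 kb. The widest covered 8794 bp on chromosome 15 from 76004076 to 76012869 (qD3), with an H3K27ac height of 22. Its PHF6 peak had a width of 12691 bp, a height of 36 and a summit 8150 bp from the H3K27ac summit. An H3K27me3 peak lay 1.34 kb from this site. Those on chromosome 9 at 57473762 to 57480220 (qB), chromosome 17 at 7136345 to 7142443 (qA1) and chromosome 6 at 89302578 to 89308059 (qD1) covered 6459, 6099 and 5482 bp, with H3K27ac heights of 29, 31 and 31 and PHF6 heights of 32, 32 and 31. Their H3K27ac scores, the peak caller's combined evidence over a peak, were 632.5, 1148 and 1175, against a median of 104.9 over all sites. The site on chromosome 18, the fourth in width, covered 5888 bp with an H3K27ac height of 23 and a PHF6 height of 39. Its H3K27ac score of 1301 was the highest among the sites. The PHF6 peak covered the whole site on chromosomes 15 and 17. It ended inside the site on chromosomes 9, 18 and 6, at 57479061, 20788412 and 89305446. On chromosome 6 the PHF6 summit, at 89301782, lay outside the site.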

How the data were processed

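Peak and summit lists of 3 ChIP libraries (PHF6, H3K27ac, H3K27me3) were analysed. Bowtie2, SAMtools and MACS 1.4.0 with build mm9 are named in the submitters' processing notes, without order or options. Per the names of the deposited files a threshold of 1e-6 applied, and the PHF6 and H3K27ac lists, unlike the H3K27me3 list, carry a tag for calling without local background, so shares depend on how each list was made. The deposited score of a peak starts at 60, which is 10 times the negative log10 of that threshold. The deposited signal of a summit is a whole-number pileup height. Score and height come from the authors and served only to describe, rank and filter peaks within a list. No source used here states a scaling to depth, so heights were not compared between antibodies.

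Peaks were joined to summits by name and intersected at a minimum of 1 bp, with 1-based positions. With several PHF6 peaks on a site, the tallest gave height and width, and the nearest summit the distance. Medians carry quartiles, shares exact intervals (scipy 1.17.1), and differences of shares Newcombe intervals (statsmodels 0.14.6). Python 3.11.15, numpy 2.4.6, pandas 2.3.3, matplotlib 3.10.9 and, for mm9 bands, circlize 0.4.16 under R 4.3.3 were used. The routines were tested on simulated lists. Named sites were the 10 with the tallest PHF6 peak (ties by H3K27ac height), 5 with the lowest H3K27ac height (6 tied, the taller PHF6 peak first, and the sixth was added after its values were seen), the 5 widest, the 5 farthest from another H3K27ac summit and the 5 densest windows of 1 Mb. The sites, height classes and rules were chosen with earlier results of these data known. Start sites, base composition and motifs were planned and not analysed here, since they need an mm9 genome or annotation.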

Additional observations from a re-analysis of the deposited data

How the results depend on the processing

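Each of 8 results was recomputed under 6 to 8 alternatives, those on proximity by height and on PHF6 density being added after seeing the data. Of 56 values, 36 stayed within the counting interval of the reported one, and neither difference of shares changed sign. A height threshold of 25 gave a PHF6 share of 73.6%, a median width of 957 bp, 38.7% of summits within 100 bp and 36.9% near a stronger peak. Scores of at least 100 gave 60.2%, 1206 bp, 34% and 43.6%, a PHF6 height of 28, 9 other PHF6 summits within 50 kb and a difference of -8.66 points at heights of 11 to 16. This filter left 5185 sites. Requiring the H3K27ac summit inside the PHF6 peak gave a share of 67.0%. Summits within 50 bp were found at 23.8% of sites and a stronger peak within 5 kb at 26.8%. At heights of 25 to 34 the difference was 9.55 points with a gap of 5 kb, 10.4 with 50 kb and 11.1 against tall peaks only, which at 11 to 16 gave -4.93. Other PHF6 summits numbered 7 within 25 kb and 23 within 100 kb. Alternatives for start sites, base composition and motifs were not run. Depth is unknown and limits which low peaks were called. No paired analysis was possible because there was 1 library for each antibody.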
